A study of Mus musculus with 6 samples.

Results

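Collagens are the main structural proteins of the extracellular matrix. Each collagen molecule is a triple helix of 3 alpha chains, and each chain is the product of its own gene. Fibrillar collagens (types I, III and V among them) form the tensile fibres of the adrenal capsule and of the stroma around vessels, type IV forms the sheet-like network of basement membranes under endothelium and around cords of cortical cells, and the remaining types form beaded filaments, coat fibrils, span cell membranes or anchor basement membranes. The messenger RNA of these chains was compared in adrenal glands of adult female C57Bl/6J mice, with 3 arrays of a control group and 3 arrays of a group whose mothers received CGP 39551 (CGP) by mouth at 5 mg/kg from the start of pregnancy to the end of weaning. CGP blocks the NMDA receptor, 1 of the receptor types for glutamate. The control mice were of the same strain, sex and housing and are labelled as control with no further agent, and all mice were 21 weeks old. RNA of 18 mice was pooled for each group, and the labels do not say if its 3 arrays shared a single pool, so each p-value reflects array-to-array spread alone, possibly only technical. The comparison asks whether adrenal gene expression in the adult differs after such a block in early life.

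The collagens were taken by name, as every probe set whose platform annotation gives 1 gene symbol made of Col, a number, the letter a and a number. This gave 46 probe sets of 44 genes among 25150 probe sets on the arrays. A probe set had to reach a log2 value of 6 on 3 or more of the 6 arrays, which removed 1 of the 46, the dimmer probe set of Col6a6. The brightest probe set of each gene was kept, so that all 44 genes were tested, 11 fibrillar, 6 of basement membrane (the type IV chains) and 27 of other classes. The name of the group covers more than capsule and stroma, since chains best known from cartilage (Col2a1, Col9a1, Col10a1, Col11a2) and from epithelium (Col7a1, Col17a1) enter by the same rule. Sensory receptors (olfactory, vomeronasal and trace amine) are not expected in the adrenal, and the 75th percentile of their 126 probe sets was used as the background of an array. It lay between 6.42 and 6.65 (log2). Of the 44 genes, 39 were above it on every array, 3 on some arrays (Col4a6, Col8a2 and Col28a1) and 2 on none (Col10a1 and Col19a1), so that the tests of the last 2 cannot show a change. Levels of different genes were not compared with each other, because probe sets differ in brightness for the same amount of RNA.

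No collagen gene passed the test for a difference between the groups. Of the 44, 0 had an adjusted p under 0.05 (limma, Benjamini-Hochberg adjustment across the 16034 probe sets tested), where 3.53% of all probe sets did, 1.94% higher and 1.59% lower in CGP, and the smallest adjusted p was 0.171. At an unadjusted p under 0.05, 2 collagens passed (4.55%), Col12a1 and Col4a1, against 19.3% of all probe sets. These were also the 2 collagens (4.55%) at which the groups did not overlap, where 26.3% of all probe sets did not. The log2 fold changes (CGP minus control) ran from -0.18 for Col9a3, a chain of a fibril-coating collagen of cartilage, to 0.16 for Col12a1. Within 0.1 of 0 lay 29 of the 44, beside 9453 of all 14727 genes tested. The 95% interval of every collagen lay inside a 1.5-fold change in either direction, as did that of 14450 of the 14727 genes. It lay inside a 1.2-fold change for 24 of the 44, beside 9707 of the 14727. Like the p-values, these intervals reflect array-to-array spread alone, possibly only technical. The median over the 44 was -0.03, beside -0.01 over all 14727 genes tested. The difference was below 0 for 27 of the 44 (61.4%), beside 55% of all genes.

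**Figure D1:**
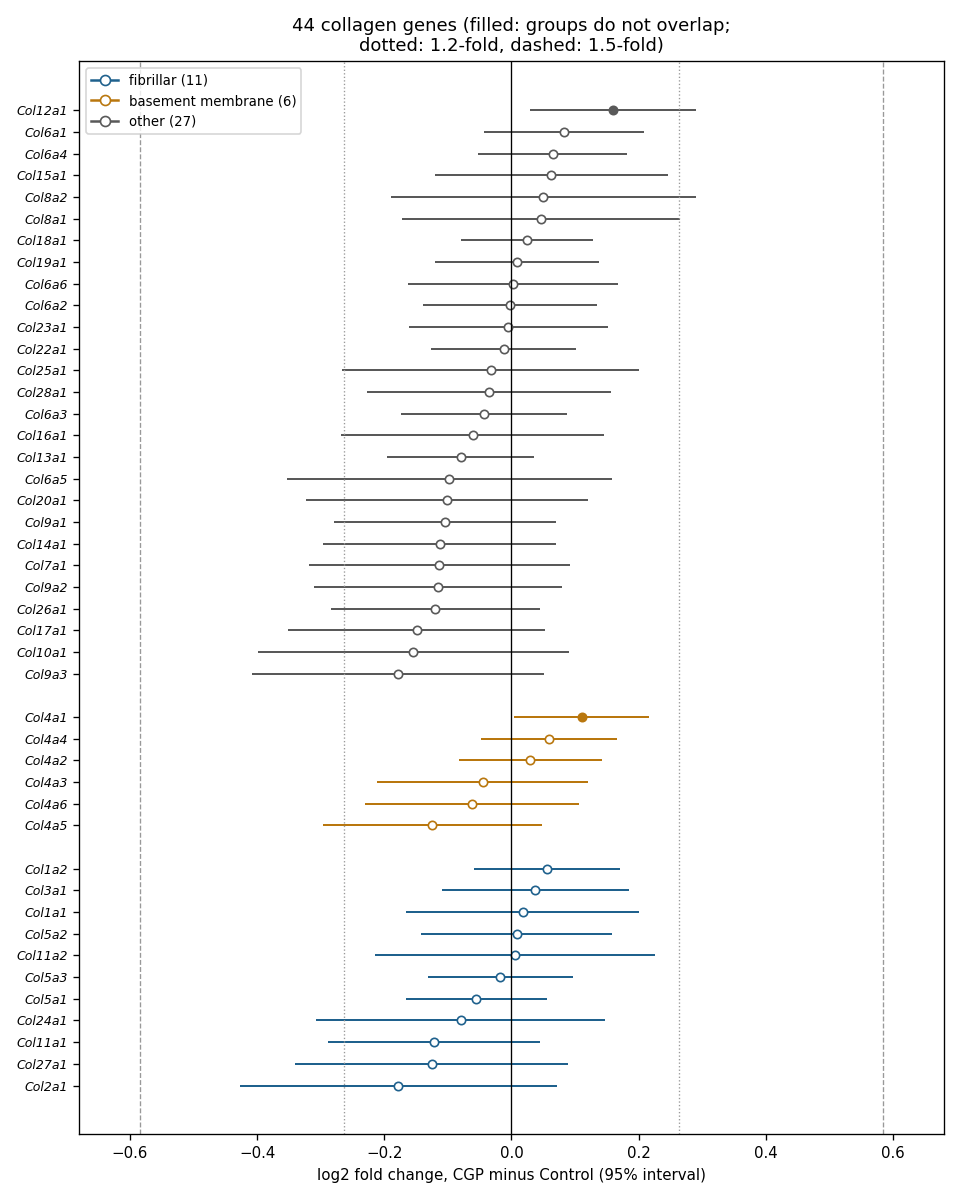
Log2 fold change of each of the 44 collagen genes (vertical axis), CGP minus control (horizontal axis), with its 95% interval from limma, in blue for fibrillar, ochre for basement membrane and grey for other collagens. Filled points mark Col12a1 and Col4a1, the 2 genes at which the groups did not overlap, and every interval lies inside the dashed lines of a 1.5-fold change.

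Among the fibrillar collagens, 0 of 11 passed the test, 5 had a difference above 0 and 6 below, and the median was -0.02 (range -0.18 to 0.06). Type I collagen, the most abundant collagen of connective tissue, is built of 2 chains of Col1a1 and 1 of Col1a2. Col1a1 had log2 values of 8.82, 9.10 and 9.01 on the control arrays 1 to 3 and 9.05, 9.02 and 8.91 on the CGP arrays 1 to 3. The CGP arrays lay inside the range of the controls, with a difference of 0.02 (SE 0.08, adjusted p = 0.924). Col1a2 gave 8.73, 8.76 and 8.85 in controls and 8.83, 8.85 and 8.82 in CGP, again with overlapping groups (0.06, SE 0.05, adjusted p = 0.567). Col3a1, the chain of type III collagen, which lies with type I in extensible tissue, read 7.67, 7.85 and 7.88 in controls and 7.86, 7.85 and 7.81 in CGP (0.04, SE 0.06, adjusted p = 0.777). In all 3 genes control array 1 was the lowest of the 6.

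The region just before the annotated start of Col1a2 is shown because its product is paired with that of Col1a1 in 1 molecule although the genes lie on different chromosomes, 6 and 11. The 250 bases before the start (RefSeq, GRCm38.p6, chr6:4505368-4505617, plus strand) are given 5′ to 3′, with CCAAT boxes and GC boxes in capitals.
Col1a2: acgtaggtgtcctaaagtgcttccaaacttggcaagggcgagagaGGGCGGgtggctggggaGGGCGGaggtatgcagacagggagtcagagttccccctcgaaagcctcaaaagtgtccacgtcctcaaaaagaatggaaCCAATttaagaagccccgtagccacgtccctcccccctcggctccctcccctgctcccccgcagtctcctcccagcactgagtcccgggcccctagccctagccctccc
The stretch held 2 GC boxes (GGGCGG), with first bases at -205 and -188 from the start, and 1 CCAAT box (CCAAT) with its first base at -109. Windows of 300 bases around the start, 250 before and 50 after, were held for 35 of the 44 genes, with 38 windows in all. A GC box on either strand (GGGCGG or CCGCCC) was present in 23 of these 38 windows (60.5%), beside 35.7% of all 32851 promoter windows, and in 6 of 8 fibrillar, 4 of 5 basement membrane and 13 of 25 other windows. A CCAAT box on either strand (CCAAT or ATTGG) was in 13 of 38 (34.2%), beside 37.4% of all, and TATAAA or TTTATA was in 5 of 38 (13.2%), beside 13.6%. These letters are described only as present in the windows.

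Type V chains are built into type I fibrils and set their width. Col5a1 read 8.42, 8.47 and 8.49 in controls and 8.41, 8.45 and 8.36 in CGP, a difference of -0.06 (SE 0.05, adjusted p = 0.555) with overlapping groups. Col5a2 read 6.70, 6.87 and 6.65 in controls and 6.74, 6.78 and 6.74 in CGP (0.008, SE 0.06, adjusted p = 0.961), so that all CGP values lay between the lowest and the highest control. These values lie close to background, which was 6.60 on control array 3. Col5a3, the third type V chain, differed by -0.02 (adjusted p = 0.870). The cartilage chain Col2a1 had the lowest fold change of the class, -0.18 (SE 0.11, adjusted p = 0.407). Its control values of 7.67, 8.10 and 7.73 show that control array 2 stood above the rest, and the CGP values were 7.58, 7.70 and 7.69. The remaining fibrillar chains, Col11a1, Col11a2, Col24a1 and Col27a1, lay between -0.13 and 0.005.

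**Figure D2:**
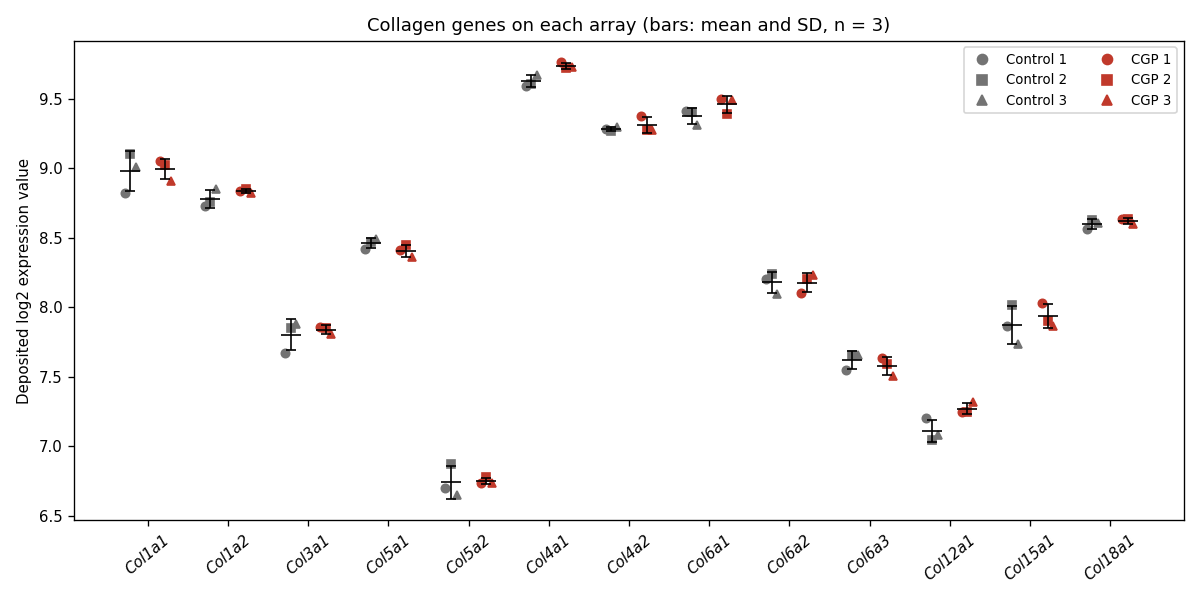
Deposited log2 values (vertical axis) of 13 collagen genes (horizontal axis) on each array, control in grey and CGP in red, with a circle, square and triangle for arrays 1, 2 and 3 and the mean and SD (n = 3) in black. The groups overlap except at Col4a1 and Col12a1, where all CGP values lie above all control values.

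In basement membranes the type IV chains assemble in fixed combinations, of which Col4a1 with Col4a2 is the widespread form and the chains of Col4a3 to Col4a6 belong to specialised membranes such as that of the glomerulus. Of the 6 genes, 0 passed the test, 3 lay above 0 and 3 below, and the median was -0.008 (range -0.12 to 0.11). Col4a1 read 9.59, 9.61 and 9.67 in controls and 9.76, 9.72 and 9.73 in CGP. Each CGP array was higher than each control array, by 0.11 between means (SE 0.05, 95% interval 0.005 to 0.22), but the difference did not pass the test (unadjusted p = 0.0422, adjusted p = 0.239). Its partner Col4a2 read 9.28, 9.27 and 9.29 in controls and 9.38, 9.28 and 9.27 in CGP, with overlapping groups and a difference of 0.03 (SE 0.05, adjusted p = 0.767), and only CGP array 1 stood above the controls. Whether the differences of Col4a1 and Col4a2 are unequal was not tested.

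Col4a1 and Col4a2 lie head to head on chromosome 8 and are transcribed in opposite directions from a shared start region. The annotated starts overlap, so that 22 bases belong to both transcripts. They are shown in capitals with 4 bases on each side (RefSeq, GRCm38.p6, chr8:11312801-11312830, plus strand, the strand of Col4a2).
Col4a1-Col4a2 start: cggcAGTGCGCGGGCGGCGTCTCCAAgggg
A GC box, GGGCGG, lies inside the shared stretch. The other type IV genes are also neighbours. Col4a3 and Col4a4 on chromosome 1 differed by -0.04 and 0.06 (adjusted p = 0.763 and 0.514), and Col4a5 and Col4a6 on the X chromosome by -0.12 and -0.06 (adjusted p = 0.395 and 0.670). Col4a5 read 6.65, 6.89 and 6.92 in controls and 6.70, 6.70 and 6.70 in CGP, so that control array 1 was lower than the CGP arrays and the other controls higher. Without control array 1 it was the sole collagen to pass the test in any of the fits that left out an array (fell by 0.21, adjusted p = 0.0487, limma), a fit in which 1099 probe sets passed in place of 566. The values of Col4a5 were above background on all 6 arrays but close to it, as on CGP array 1 (6.70 beside a background of 6.56). Col4a6 lay near background, above it on 3 of the 6 arrays.

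Among the 27 other collagens, 0 passed the test, 9 lay above 0 and 18 below, with a median of -0.04 (range -0.18 to 0.16). Col12a1, a fibril-coating collagen of dense connective tissue, read 7.20, 7.05 and 7.08 in controls and 7.25, 7.25 and 7.32 in CGP. All CGP values were higher than all control values, with a narrow gap between control array 1 and CGP array 1, and the difference of 0.16 (SE 0.06, 95% interval 0.03 to 0.29, a 1.12-fold change) did not pass the test (unadjusted p = 0.0210, adjusted p = 0.171). Of all 9 fibril-coating chains, 7 lay below 0 and 2 above, the other being Col19a1, which was at background. Col14a1, the relative of Col12a1 in tendon and skin, differed by -0.11 (adjusted p = 0.465), Col16a1 by -0.06 (adjusted p = 0.738) and the cartilage chains Col9a1, Col9a2 and Col9a3 by -0.10, -0.12 and -0.18 (adjusted p between 0.361 and 0.483).

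Type VI collagen forms beaded filaments around cells, including those of fat and of the capsule, from 1 chain each of Col6a1, Col6a2 and Col6a3. Col6a1 read 9.41, 9.40 and 9.31 in controls and 9.50, 9.39 and 9.49 in CGP (0.08, SE 0.05, adjusted p = 0.435). Col6a2, its neighbour on chromosome 10, read 8.20, 8.24 and 8.10 in controls and 8.10, 8.20 and 8.23 in CGP (-0.003, SE 0.06, adjusted p = 0.986). Col6a3 read 7.55, 7.66 and 7.66 in controls and 7.64, 7.59 and 7.51 in CGP (-0.04, SE 0.06, adjusted p = 0.701). The groups overlapped at all 3 chains, and the 3 differences had no common sign. Col6a4, Col6a5 and Col6a6, neighbours on chromosome 9, differed by 0.06, -0.10 and 0.002, and the dimmer probe set of Col6a5 by -0.09 (adjusted p = 0.604), in the same direction as the brighter.

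Col15a1 and Col18a1 are the multiplexins, which attach basement membranes to the matrix beneath, and Col18a1 carries the endostatin sequence. Col15a1 read 7.86, 8.01 and 7.74 in controls and 8.03, 7.90 and 7.87 in CGP (0.06, SE 0.08, adjusted p = 0.696), and the groups overlapped widely. Col18a1 read 8.56, 8.63 and 8.60 in controls and 8.63, 8.64 and 8.60 in CGP (0.02, SE 0.04, adjusted p = 0.800), with an interval of -0.08 to 0.13. The 4 transmembrane collagens, Col13a1, Col17a1, Col23a1 and Col25a1, all lay below 0 (-0.15 to -0.005), the anchoring fibril chain Col7a1 at -0.11, and the network-forming Col8a1, Col8a2 and Col10a1 at 0.05, 0.05 and -0.15. None of these groups held a gene that passed the test.

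The collagens differed among the control arrays. Between single arrays, the median difference over the collagens was -0.20 for control array 1 minus control array 2. It was 0.07, 0.17 and 0.15 for control array 2 minus CGP arrays 1 to 3, and -0.09, -0.04 and -0.05 for control array 1 minus the same arrays. Control array 2 gave the highest of the 6 values at 24 of the 44 collagens (54.5%), beside 19.9% of all probe sets. Control array 1 gave the highest at 0 of the 44, beside 15.3% of all probe sets. It gave the lowest at 18 of the 44, for which the share of all probe sets was not computed. After each gene's mean over the 6 arrays was subtracted, the median over the fibrillar collagens was -0.08, 0.12 and 0.03 on control arrays 1 to 3 and 0.02, 0.01 and -0.07 on CGP arrays 1 to 3. The CGP arrays thus lay between control arrays 1 and 2. The basement membrane median ran from -0.08 (control 1) to 0.06 (control 2) and the median of the other collagens from -0.07 to 0.10 on the same arrays, whereas the median over all genes tested stayed between -0.01 and 0.02. The median SD of a collagen was 0.12 among the controls and 0.05 among the CGP arrays, beside 0.07 and 0.06 over all genes.

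The share highest on control array 2 was split at a mean of 8 (log2), with all probe sets on the same side of that cut beside it. Within each side, brightness was not matched further. Of the 33 collagens with a mean under 8 (log2), 20 were highest on control array 2 (60.6%, beside 29.0% of all probe sets under 8), and 4 of the 11 collagens with a mean of 8 or more were (36.4%, beside 12.5%). These 4 were Col9a3, Col6a2, Col27a1 and Col1a1, with means of 8.07, 8.18, 8.34 and 8.99. Among the collagens with a higher mean than Col27a1, only Col1a1 was highest on control array 2, so an excess was not shown for the brightest collagens. The background of the receptor probe sets was also highest on control array 2 (6.65) and stood at 6.49 and 6.60 on control arrays 1 and 3 and at 6.42 to 6.56 on the CGP arrays. The part of background in the collagen values was not tested. Without control array 2 the class medians were 0.03 for fibrillar, 0.02 for basement membrane and 0.002 for other collagens, each of the opposite sign to the median with all arrays, and 0 collagens passed the test.

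**Figure D3:**
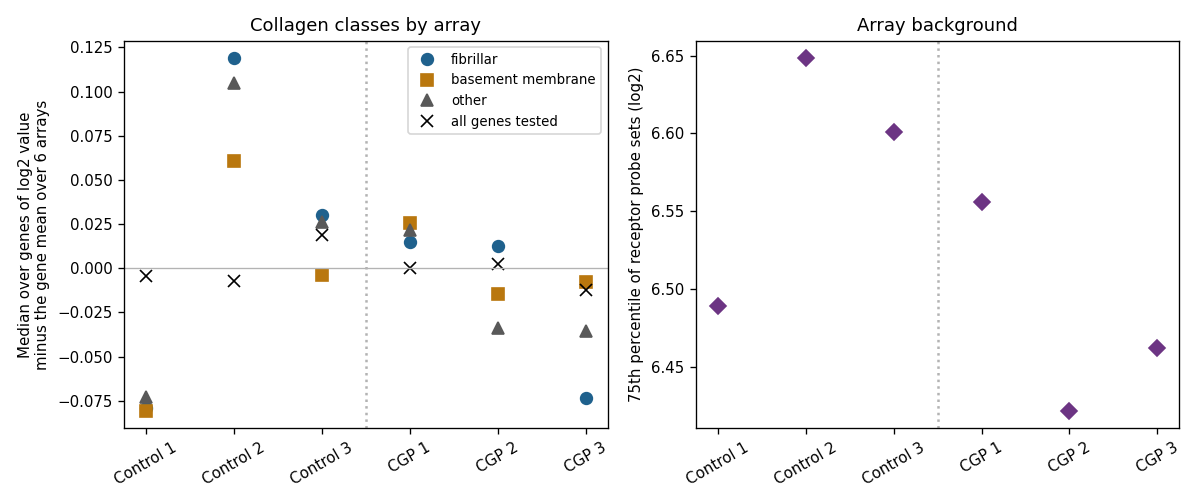
Left, median over the genes of each collagen class, and over all genes tested, of the log2 value minus the gene's mean over 6 arrays (vertical axis), by array (horizontal axis). Right, array background in log2, the 75th percentile of 126 receptor probe sets. The collagen classes are lowest on control array 1 (fibrillar -0.08) and highest on control array 2 (fibrillar 0.12), with the CGP arrays between, and background is highest on control array 2 (6.65).

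Of 103 genes that build, bind and remove collagen, in 7 lists, 5 passed the test (4.85%), 4 higher and 1 lower, a share near the 3.53% of all probe sets. Chains are hydroxylated and folded in the endoplasmic reticulum, and of 17 tested genes for this step 0 passed the test (median -0.03). The smallest adjusted p was that of P4ha1, a prolyl hydroxylase subunit (0.22, SE 0.07, adjusted p = 0.165). Of 15 genes for export, cleavage of the propeptides and cross-linking, 1 rose (1.94% of all probe sets did) and 14 did not pass. Pxdn, the peroxidasin that cross-links type IV collagen, read 9.62, 9.57 and 9.63 in controls and 9.89, 9.81 and 9.84 in CGP. The groups were separate and the rise was 0.24 (SE 0.05, adjusted p = 0.0376). The call did not hold in 5 of the 6 fits without 1 array, all but that without control 1 (adjusted p up to 0.137).

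Of 14 genes of proteoglycans and other proteins that bind fibrils, 2 rose, 1 fell and 11 did not pass (median 0.11), where 1.94% of all probe sets were higher and 1.59% lower. Prelp, a leucine-rich proteoglycan that links basement membrane to fibrils, rose by 0.35 (SE 0.05, adjusted p = 0.0104), from 10.23, 10.17 and 10.25 to 10.64, 10.56 and 10.51. Fmod, fibromodulin, which binds type I fibrils, rose by 0.22 (SE 0.04, adjusted p = 0.0449), and lost the call in each of the 6 fits without 1 array (adjusted p up to 0.171). Fn1, fibronectin, which hepatocytes also secrete into plasma, fell by 0.25 (SE 0.05, adjusted p = 0.0360). Fn1 lost its call without control 1 or 3 or any CGP array (up to 0.149), and Prelp without CGP 2 (0.0570).

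Of 13 genes of collagen breakdown, 1 rose (beside 1.94% of all probe sets), Timp4, an inhibitor of matrix metalloproteinases that is abundant in fat. It read 7.95, 7.90 and 7.85 in controls and 8.48, 8.47 and 8.36 in CGP, a 1.45-fold rise (0.54, SE 0.05, adjusted p = 0.00123) that held in every fit without 1 array. Of 10 collagen receptors 0 passed, with the integrin chain Itga1 nearest (0.20, adjusted p = 0.140), and of 16 genes of profibrotic signalling 0 passed, with the matricellular Ccn2 nearest (-0.12, adjusted p = 0.230). Among 18 partners of type IV collagen in basement membranes, laminins and nidogens among them, 0 passed, with a median of 0.09. The laminin chain Lama4 was nearest (0.20, SE 0.05, adjusted p = 0.0650).

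Markers of cell types that the adrenal sample could hold are given beside these values. Of 14 markers of fibroblasts and capsule all were tested, none lay under background on all arrays, and 4 rose, where 1.94% of all probe sets did, Rspo3, which amplifies Wnt signals from the capsule (0.48), Mfap5, a microfibril protein (0.30), Gsn, the actin-severing gelsolin (0.26), and Pi16 (0.22), with adjusted p between 0.00348 and 0.0494 and a list median of 0.14. The other 10 did not pass, and of these Thy1 (-0.11), Tcf21 (-0.05) and Gli1 (-0.02) lay below 0. The 4 calls were not examined in the fits without 1 array. The per-array median of the fibroblast and capsule list was 8.18 to 8.26 in controls and 8.35 to 8.38 in CGP. Of 12 endothelial markers and 11 of pericytes and smooth muscle, 0 passed (medians 0.04 and 0.08).

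Hepatocyte and adipocyte markers moved more. Of 17 hepatocyte markers 17 fell (limma, adjusted p under 0.05, beside 1.59% of all probe sets), with a per-array median of 9.82 to 9.95 in controls and 8.87 to 8.91 in CGP, and of 14 adipocyte markers 12 rose, beside 1.94% of all probe sets, with 10.9 to 11.0 in controls and 11.5 to 11.6 in CGP. None of either list was at background on all arrays. Like the other marker and partner lists, both were chosen with earlier results of these data known, so their counts are no independent test. Their part in the values of Timp4, Fn1 and the collagens was not tested. In bulk RNA a smaller number of cells of a type and less RNA per cell cannot be told apart. The adrenal genes Star and Cyp11b1 of the cortex and Th and Dbh of the medulla had group means between 12.4 and 14.1, and 0 of the 4 passed the test.

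**Figure D4:**
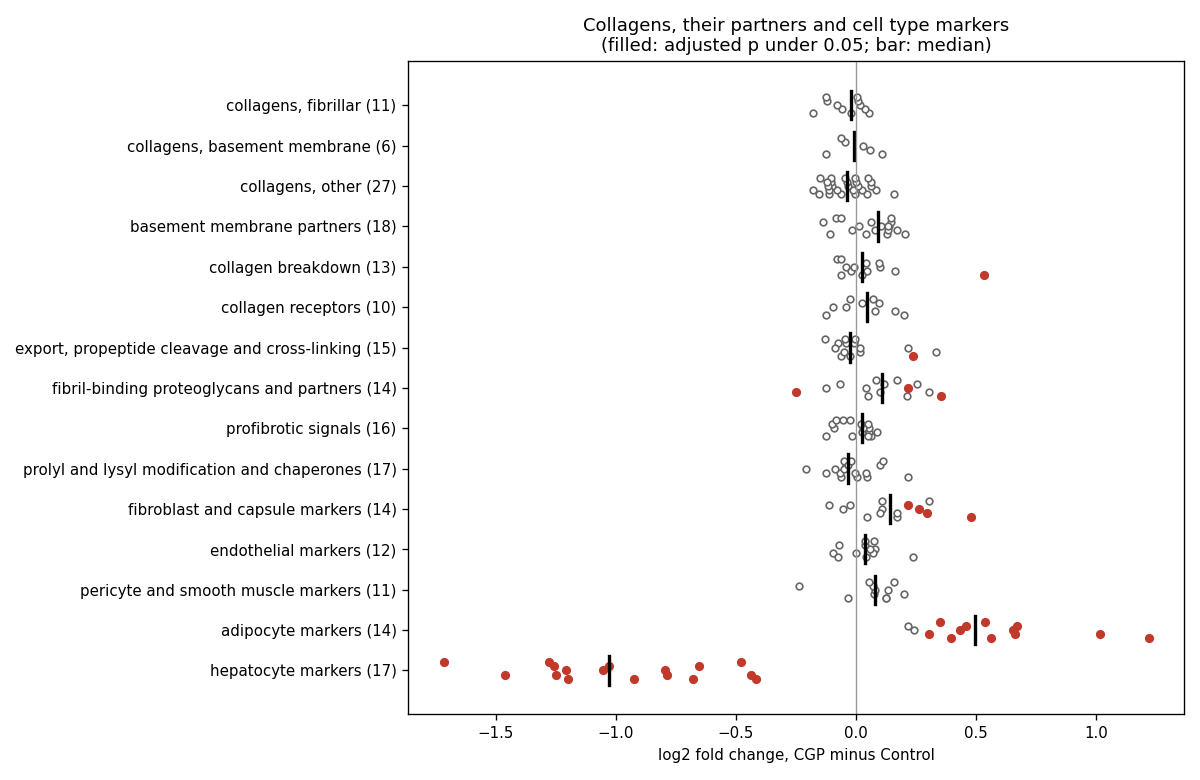
Log2 fold change, CGP minus control (horizontal axis), of each tested gene in the collagen classes, 7 lists of collagen partners and 5 lists of cell type markers (vertical axis, number of genes in parentheses). Filled red points have an adjusted p under 0.05 and black bars are list medians. No collagen point is filled, whereas all 17 hepatocyte markers and 12 of 14 adipocyte markers are.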

How the data were processed

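The values deposited by the authors form 1 table on a log2 scale, with 25150 probe sets on 6 whole-transcript arrays. The submitters' processing notes name RMA (background correction, quantile normalisation and summary of probes) and Partek. For the versions, genome build and annotation of the table, the sources used here give nothing. The values (3.75 to 14.6) were not normalised further. Arrays have no read depth, and their number limits the precision.

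Gene names came from the platform annotation and were updated by Entrez number with a RefSeq gene table of GRCm38.p6. Of the probe sets, 16769 had 1 symbol, 1031 several and 7350 none. The 16034 with 1 symbol that reached a log2 value of 6 on 3 or more arrays were tested two-sided in R 4.3.3 with lmFit and eBayes of limma 3.58.1 and no covariates, with Benjamini-Hochberg adjustment over all of them and a threshold of 0.05. SE is the moderated standard error and SD the standard deviation over 3 arrays. The same code was tested on simulated data. Its recovery of small changes is not reported here, so that test does not bear on the collagens. Groups and array numbers came from the sample titles.

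Collagens were placed in the fibrillar class by type (I, II, III, V, XI, XXIV and XXVII), in the basement membrane class for type IV, and otherwise in the other class. Array values are given for any collagen that passed, for 12 collagens named in advance (Col1a1, Col1a2, Col3a1, Col4a1, Col4a2, Col5a1, Col5a2, Col6a1, Col6a2, Col6a3, Col15a1 and Col18a1) and, chosen after their values were seen, for Col2a1, Col4a5 and Col12a1. Of each partner list, up to 4 members that passed are named, or the one with the smallest adjusted p. The members, classes, gene lists and markers were chosen with earlier results of these data known. Promoter sequences are from RefSeq (GRCm38.p6). Alternatives covered the filter, the probe sets in the fit, the probe set per gene, median centring, quantile normalisation, array weights, a trended robust variance, the class assignment, a block for the array number, and fits without 1 array. A further one, with collagens above background on all 6 arrays, was chosen after seeing the data. Plots were drawn with matplotlib 3.10.9.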

Additional observations from a re-analysis of the deposited data

How the results depend on the processing

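The count of collagens higher in CGP was 0 under all 15 alternatives. The count of lower collagens was 0 under 14, and 0 to 1 over the fits without 1 array, the 1 being Col4a5 without control array 1. The class medians moved by less than the spread between arrays under every alternative run. They ranged from -0.08 to 0.03 for fibrillar, -0.04 to 0.04 for basement membrane and -0.09 to 0.002 for other collagens. Each class median thus took both signs. Some alternatives could not move them, since no filter, all probe sets, a trended robust variance and the block leave these fold changes unchanged. The fits without 1 array leave little room for a move beyond that spread, so the comparison is a weak check. Arrays with the same number showed no positive correlation, but whether they were paired cannot be settled from these values. The correlation of their deviations from the group means over the tested probe sets was -0.36, -0.17 and -0.12 for numbers 1, 2 and 3. For unlike numbers it ran from -0.16 to 0.28. Deviations from a group mean balance out within the group, so these correlations depend on each other. With the array number as a replicate block, 0 collagens passed (Col4a1 adjusted p = 0.446, Col12a1 adjusted p = 0.335), and the calls of Pxdn (0.145), Prelp (0.0657), Fmod (0.195) and Fn1 (0.155) were lost while that of Timp4 held (0.00880). With all probe sets in the fit, the calls of Pxdn (0.0778), Fn1 (0.0764) and Fmod (0.0864) were lost, and Fmod also without a filter (0.0502), with quantile normalisation (0.0517) and with median centring (0.0563). The cause was not tested.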
